A study of Mus musculus with 2 samples.

Results

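The genes described here are 10 immediate early and dissociation response genes, Fos, Fosb, Fosl1, Jun, Junb, Jund, Egr1, Atf3, Ier2 and Dusp1, taken by symbol from tables of 24357 named genes. All 10 symbols were present in both tables. The libraries were made from the epithelium of the ileum, the end of the small bowel, of C57BL/6 mice of wildtype genotype, and RNA was read by sequencing. Cells were released with EDTA, which loosens the epithelium by binding calcium, and sorted as live cells (negative for the dead-cell dye 7AAD) that carried the epithelial protein EpCAM and lacked CD45, a protein of leukocytes. Both libraries belong to 1 group and are numbered replicate 1 and replicate 2 by accession, with no treatment, no second genotype and no age in the labels. Nothing in the labels says how many animals gave each library. The Y-linked gene Eif2s3y was listed at 0 in replicate 1 and at 14.9 FPKM in replicate 2, so the libraries differed in the sex of their source as well as in any other property, and these cannot be told apart.

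Immediate early genes are transcribed within minutes of a signal, without the need for new protein. Their main switch is the MAP kinase cascade, which acts through serum response factor (SRF), its ternary complex partners and CREB at the promoters. The Fos and Jun proteins pair through leucine zippers into the transcription factor AP-1. Jun proteins can pair with each other, while Fos proteins need a Jun partner. Egr1 is a zinc finger transcription factor, Atf3 a stress-induced relative of the AP-1 proteins, and Ier2 a nuclear protein induced by growth factors. Dusp1 is a phosphatase that switches MAP kinases off. Many of their transcripts are short-lived, and several of these genes are known from many tissues to appear while cells are being separated from each other and sorted. All cells here had been released and sorted, so levels present in the intact tissue and levels gained on the way to lysis cannot be told apart.

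Most of the 10 genes were abundant. At a minimum of 1 FPKM (mapped fragments of a gene corrected for its length and for library size) in both libraries, 9 of 10 were expressed, beside 42.3% of all named genes. The median of the 10 genes lay at percentile 94.2 of all named genes. Fos, Junb, Ier2 and Jund each had a mean above 100 FPKM, a level reached by 770 named genes. Together the 10 genes held 0.112% of the summed FPKM in replicate 1 and 0.0984% in replicate 2. FPKM are scaled to transcript length, so levels of different genes can be set side by side. This scaling does not remove effects of GC content or reads of overlapping genes, so order and shares are approximate.

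Among the Fos family genes of the set, which leave out Fosl2 (19.5 and 16.1 FPKM), Fos was by far the highest. The level of Fos was 143 FPKM in replicate 1 against 132 FPKM in replicate 2, a mean of 138 ± 7.46 FPKM (SD, n = 2, as for every ± here), and was the highest of the 10 genes. It stood at percentile 97.7 of all named genes. Fosb, whose product also pairs with Jun proteins, had 7.08 and 4.85 FPKM, a mean of 5.96 ± 1.58 FPKM. Fosl1, which encodes Fra-1, was listed at 0 in replicate 1 and at 0.0494 FPKM in replicate 2. These values lie under the 0.109 and 0.0676 FPKM that 3 fragments would give, so Fosl1 was not detectable at this depth. Fosl1 also overlaps Ccdc85b on the other strand, and 58.9% of its 50-base words occur there in antisense, while Ccdc85b itself had 0.799 and 0.887 FPKM.

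All 3 Jun genes were high and close to each other. Junb, the member often described as a weaker activator than Jun, had 135 and 123 FPKM, a mean of 129 ± 8.96 FPKM. Jund, the member least tied to growth signals, had 114 and 93.5 FPKM, with a mean of 104 ± 14.5 FPKM. Jun had 88.7 and 82.0 FPKM, a mean of 85.4 ± 4.76 FPKM. Their order was the same in both libraries, with Junb above Jund and Jund above Jun. Of the 50-base words of Jund, 48.3% occur in antisense in the annotated gene Gm11175, and 5.83% of those of Jun in Junos. Neither Gm11175 nor Junos is a symbol in the tables, and the strand setting is not given in the sources used here, so reads of the overlapping strands cannot be separated. Annotated exons of Junb also overlap exons of Prdx2 (204 and 229 FPKM), and those of Dusp1 overlap exons of Ergic1 (22.5 and 23.0 FPKM), both on the other strand. The Junb and Dusp1 transcripts used here shared 0 of their 50-base words with other genes.

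Among the 6 Fos and Jun genes of the set, which leave out Fosl2, the Jun genes made up 69.3% of the FPKM in replicate 1 and 68.5% in replicate 2, or 68.9 ± 0.558%. Fos alone made up 29.3% and 30.4%, Junb 27.7% and 28.2%, Jund 23.3% and 21.5%, and Jun 18.2% and 18.8%. Fosb contributed 1.45% and 1.11%. The summed Jun level was 2.25 times the summed Fos level in replicate 1 and 2.17 times in replicate 2. Every share differed by less than 2 percentage points between the libraries, although both families had lower summed FPKM in replicate 2. With Fosl2 (19.5 and 16.1 FPKM) counted in the Fos family, a choice made after its values were seen, the Jun share was 66.6% and 66.0% and the ratio 1.99 and 1.94.

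**Figure D1:**
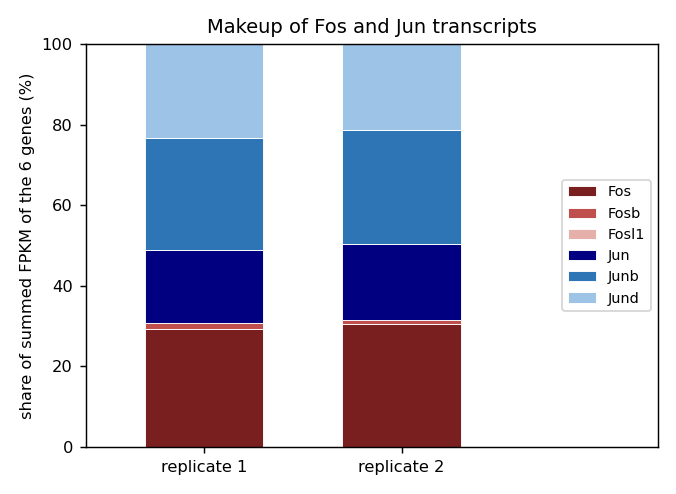
Share of each Fos and Jun gene in the summed FPKM of the 6 genes, in percent, with 1 stacked bar per library. The Jun genes (blue) fill 69.3% and 68.5% of the bars and Fos (dark red) 29.3% and 30.4%, while Fosb is a thin band and Fosl1 is too low to see.

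Of the other 4 genes Ier2 lay within the range of the Jun genes, and Egr1, Atf3 and Dusp1 lay below it. Ier2 had 105 and 114 FPKM, a mean of 110 ± 6.16 FPKM, and it alone of the 9 expressed genes was higher in replicate 2 in FPKM as deposited. Egr1 had 36.8 and 33.7 FPKM, at percentile 92.1 by its mean. Atf3 had 25.2 and 13.0 FPKM, a mean of 19.1 ± 8.59 FPKM. Dusp1, the phosphatase, had 23.4 and 12.9 FPKM, a mean of 18.1 ± 7.41 FPKM. For these last 2 genes the SD was 44.9% and 40.8% of the mean, against 5.42% for Fos and 6.23% for Egr1.

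The order of the levels was therefore Fos, Junb, Ier2, Jund, Jun, Egr1, Atf3, Dusp1, Fosb and Fosl1. Neighbours were called separated where the 2 libraries did not overlap and the means differed by more than 0.65 in log2(FPKM + 1), the 95th percentile of the size of that between-library difference over the 10601 genes averaging 1 FPKM or more. This rule separated 4 of the 9 pairs of neighbours, and 35 of the 45 pairs in all. It covers the spread between the libraries only, and not a bias that both share. Jun exceeded Egr1 by 1.25, Egr1 exceeded Atf3 by 0.92, Dusp1 exceeded Fosb by 1.42 and Fosb exceeded Fosl1 by 2.75. The 5 highest genes formed a run in which no neighbours were separated, with steps of 0.09 from Fos to Junb, 0.23 to Ier2, 0.09 to Jund and 0.27 to Jun. Atf3 and Dusp1 differed by 0.06 and were not separated either.

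**Figure D2:**
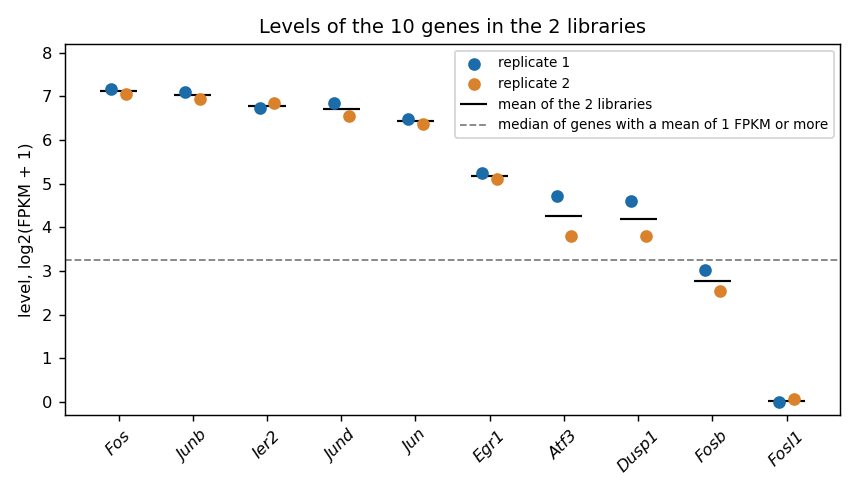
Level of each of the 10 genes as log2(FPKM + 1), with 1 point per library, a bar at the mean of the 2 values and a dashed line at the median level of genes averaging 1 FPKM or more (8.54 FPKM). Fos, Junb, Ier2, Jund and Jun form an upper group, Atf3 and Dusp1 show the widest gaps between libraries, and Fosl1 sits at the bottom.

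The genes are compact. In GENCODE release M21 on the mm10 assembly all 10 are protein-coding and their transcripts have 4 exons or fewer, as those of 1989 of 9947 expressed protein-coding genes do. Jun, Junb, Jund and Ier2 have a single exon and so no intron, which is true of 2.03% of those genes. Median transcript length was 1987 bases for the 10 genes and 2902 for the expressed ones, and median GC content 55.8% and 50.4%. Fos lies at chr12:85473890-85477273 on the plus strand with 4 exons, Fosb at chr7:19302696-19310051 on the minus strand with 4 exons, and Jun at chr4:95049034-95052222 on the minus strand. Junb (chr8:84974484-84978718) and Ier2 (chr8:84661331-84662852) lie on the minus strand of the same chromosome, 311631 bases apart. Jund is on that chromosome too, at chr8:70698949-70700616 on the plus strand. Atf3 extends over chr1:191170296-191218039 and Dusp1 over chr17:26505590-26562128, both on the minus strand with 4 exons in the transcript used. Fosl1 lies at chr19:5447547-5455946 on the plus strand.

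Promoter sequence from RefSeq (GRCm38.p6, the assembly of mm10) was matched for Fos, Fosb, Jun, Junb, Jund, Atf3 and Dusp1. The RefSeq start of Jund lies 1210 bases upstream of the GENCODE transcript used here and that of Junb 30 bases upstream, so the Jund window does not adjoin that transcript. On the same scale Dusp1 stood at -47, Atf3 at -7 and Fosb at -6 bases, where a minus sign means downstream. Their windows thus reach past the start of the GENCODE transcript. All distances below are counted from the RefSeq start. In the 250 bases before the start, on either strand, the letters TGACG, one arm of the element bound by CREB and ATF proteins, were found in 5 of 7 windows (Fos, Fosb, Junb, Atf3 and Dusp1), and in 17.8% of all 32851 promoters and 27.1% of those of expressed genes. Jun and Dusp1 hold TGACNTCA, the longer form, found in 7.49% of all promoters and 6.05% of those of expressed genes, and in part overlapping the shorter one. The letters TATAA were found only in Fos, beside 22.8% of all promoters and 12.7% of those of expressed genes. CCAAT was found in Jun and Junb, beside 33.8% and 35.8%, and GGGCGG in 5 of 7 windows, beside 32.7% and 57.9%. GCGNGGGCG, letters bound by Egr proteins, was found only in Fosb, beside 4.70% and 8.67%. Several of these shares differ between all and expressed promoters, and nothing is read from the counts in 7 windows. The CArG box, to which SRF binds, was found in none of the 7 windows, in 1.47% of all promoters and in 1.27% of those of expressed genes, and sequence farther upstream was not searched. The 160 bases before the start are shown for the highest Fos gene, 2 Jun genes and the phosphatase, because they show how the same letters sit at different distances from the start, 5′ to 3′ on the gene's strand, with matches to the first 4 motifs named above in capitals.
Fos (chr12:85473730-85473889, plus strand): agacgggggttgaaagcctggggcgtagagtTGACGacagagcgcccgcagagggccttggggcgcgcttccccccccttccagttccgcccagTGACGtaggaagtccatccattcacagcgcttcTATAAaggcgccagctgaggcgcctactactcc
Jun (chr4:95052223-95052382, minus strand): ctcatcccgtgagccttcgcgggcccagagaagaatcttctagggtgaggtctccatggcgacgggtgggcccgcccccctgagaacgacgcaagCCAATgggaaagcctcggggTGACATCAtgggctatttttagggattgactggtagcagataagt
Junb (chr8:84978749-84978908, minus strand): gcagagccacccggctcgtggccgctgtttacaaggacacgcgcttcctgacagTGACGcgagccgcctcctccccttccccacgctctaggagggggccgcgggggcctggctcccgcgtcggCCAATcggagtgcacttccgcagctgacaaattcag
Dusp1 (chr17:26508473-26508632, minus strand): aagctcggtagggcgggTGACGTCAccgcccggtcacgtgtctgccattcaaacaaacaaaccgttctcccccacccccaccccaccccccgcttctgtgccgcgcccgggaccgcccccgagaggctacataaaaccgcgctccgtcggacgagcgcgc
In Fos the TGACG nearest the start begins 66 bases before it and TATAA 33 bases before it. The Jun TGACATCA begins 45 bases before the start, the Junb TGACG 106 bases and the full palindrome of Dusp1 143 bases before it. These matches are descriptions of the sequence and not evidence of binding in these cells.

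Short AU-rich words, known from unstable transcripts, were counted in the 3′ untranslated regions. AUUUA was found in 9 of 10 genes, all but Ier2, beside 66.9% of 9890 expressed genes with an annotated 3′ untranslated region, and 2 times or more in 6 of 10, beside 47.0% of these genes, and nothing is read from these counts. The longer word UUAUUUAUU was found in Fos and Dusp1, and in 7.06% of expressed genes. Dusp1 held 4 copies of AUUUA in 690 bases and Fos 4 in 815, with Junb next in density at 2 in 485, against 4 in 1233 for Jun, 3 in 1186 for Atf3 and 1 in 2145 for Fosb. The densest stretches of these 2 genes are shown as DNA with each ATTTA in capitals, from bases 642 to 671 of the Fos region and 94 to 123 of the Dusp1 region.
Fos: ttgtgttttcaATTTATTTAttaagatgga
Dusp1: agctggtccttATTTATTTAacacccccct
Fos, with the overlapping repeat, was the highest of the 10 genes, while Dusp1 with the same repeat stood eighth in level.

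Between the libraries most of the 10 genes differed little. Atf3 was lower in replicate 2, with a difference of -0.90 in log2(FPKM + 1), and Dusp1 likewise with -0.81. These were the only 2 of the 9 expressed genes whose absolute difference passed the 95th percentile of 0.65, which 5% of all genes pass by construction, and 2.05% and 2.66% of genes had a larger absolute difference. Neither passed a difference of 1, which 0.962% of genes passed with lower values in replicate 2 and 0.566% with higher values. With replicate 2 rescaled by the median ratio, which moves the median of all genes from 0.11 to 0, Atf3 passed it at -1.02. There is 1 library on each side, so no p-value exists for these differences.

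Counting error alone was narrower than these 2 differences, as it was for the other expressed genes of the set. Depth read from the lowest FPKM values was about 16100000 fragments for replicate 1 and 26100000 for replicate 2. On that basis Atf3 rested on about 741 and 620 fragments and Dusp1 on about 690 and 616. The ratio of replicate 2 to replicate 1 was 0.518 for Atf3 (95% exact binomial interval 0.465 to 0.577) and 0.552 for Dusp1 (0.495 to 0.617). Fosb followed with 0.685 (0.599 to 0.786) from about 413 and 458 fragments, and its difference was -0.47. For Fos the ratio was 0.926 (0.892 to 0.962) from about 4489 and 6720 fragments. The intervals also left out a ratio of 1 for Jund (0.781 to 0.863), Junb (0.869 to 0.946), Jun (0.889 to 0.961), Egr1 (0.861 to 0.974) and Ier2 (1.03 to 1.14). Leaving out 1 is therefore not particular to Atf3 and Dusp1. Such intervals cover counting error only and leave out the spread between animals and preparations.

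In FPKM as deposited, 8 of the 9 expressed genes were lower in replicate 2, beside 36% of all genes. That count became 9 of 9 after rescaling by the median ratio and 4 of 9 after removal of a trend on GC content and length. The 36% holds for FPKM as deposited only. Below the median difference of all genes, which by definition splits all genes evenly, lay 8, 9 and 7 of the 9 genes, in the same order. Their median difference was -0.14, against 0.11 over all genes, and 0.01 with the trend removed, a scale on which all genes stay at 0.11. Jund had a difference of -0.28, Junb -0.14, Egr1 -0.12, Jun and Fos -0.11 each, and Ier2 0.11. The difference between libraries went with GC content across 10227 genes (Spearman's rho = -0.512, a description across genes that are not independent replicates). Its median was -0.15 in the fifth of genes with the highest GC content, which holds Fosb, Junb, Jund and Ier2. With the trend removed Jund stood at 0.01 and Ier2 at 0.35, while Atf3 at -0.92, Dusp1 at -0.61, Fosb at -0.26 and Fos at -0.13 were still lower in replicate 2.

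**Figure D3:**
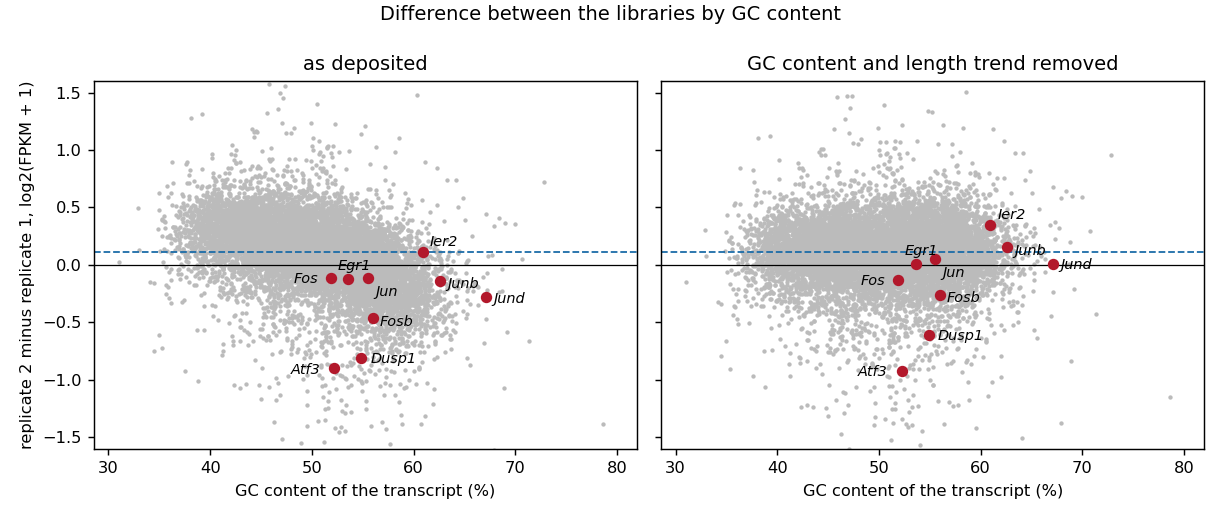
Difference between the libraries (replicate 2 minus replicate 1, in log2(FPKM + 1)) against GC content of the transcript in percent, for 10227 genes (grey) and the 9 expressed genes of the set (red), before and after removal of the trend on GC content and length. The dashed line is the median of all genes at 0.11, and 53 and 50 genes lie beyond the vertical limits of 1.6. Atf3 and Dusp1 stay low in both panels, while Jund moves from -0.28 to 0.01.

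Other immediate and early response genes covered the same range of levels, and the 10 genes include most of the highest. Of 47 others 36 reached 1 FPKM in both libraries, beside 42.3% of all named genes. They were led by Zfp36, which encodes the protein that binds AU-rich words and starts decay of the transcript, at 123 ± 19.8 FPKM, Nfkbia, the inhibitor of NF-kappaB, at 78.9 ± 15.5 FPKM, and Klf4, a transcription factor of differentiated epithelium, with 84.7 and 56.4 FPKM. Zfp36 alone lay above Ier2 in mean level, and 5 of the 6 highest of these 57 genes were Fos, Junb, Ier2, Jund and Jun. Several close relatives of the 10 genes were near the floor, a fact noticed after their values were seen. Egr2 had 0.640 and 0.298 FPKM, Egr3 0.0170 and 0.0313 FPKM, and Egr4 was listed at 0 in both libraries, against 36.8 and 33.7 FPKM for Egr1. The nuclear receptor genes Nr4a1 with 1.15 and 0.805 FPKM and Nr4a3 with 0 and 0.00701 FPKM, also known as immediate early genes, were low as well.

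**Figure D4:**
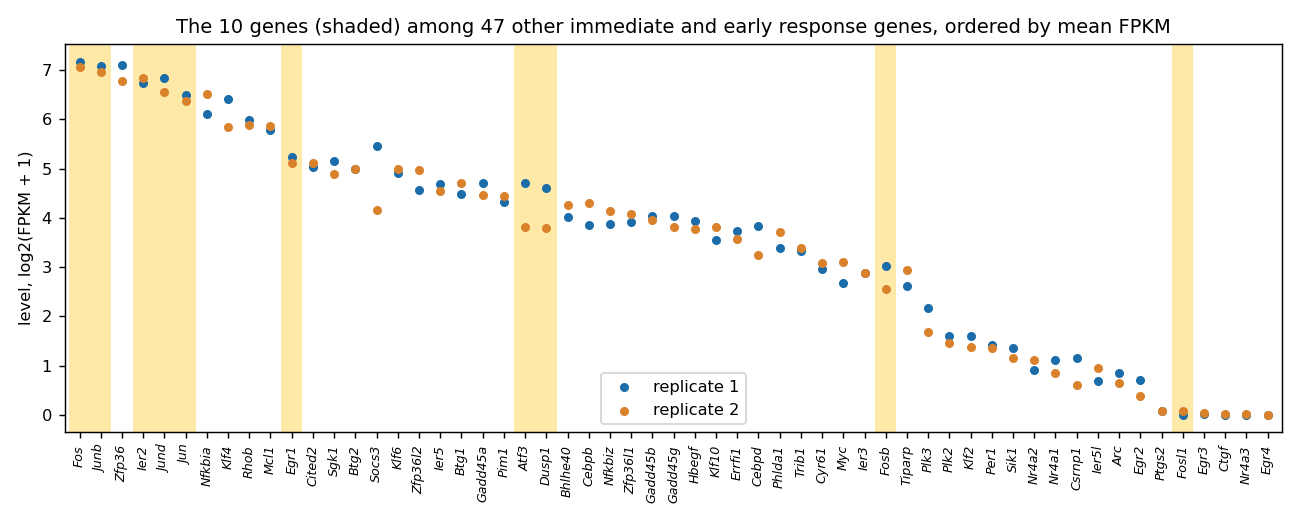
Level as log2(FPKM + 1) of the 10 genes (shaded) and 47 other immediate and early response genes in each library, ordered by mean FPKM. Fos, Junb, Ier2, Jund and Jun stand at the top beside Zfp36, Egr1, Atf3 and Dusp1 in the upper part, and Fosl1 near the foot with Egr3 and Egr4.

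Of the 37 other immediate and early genes averaging 1 FPKM or more, 19 were higher and 18 lower in replicate 2, beside 36% of all genes lower. Their median difference was 0.00, or 0.07 with the trend removed, beside 0.11 over all genes. Socs3, an inhibitor of cytokine signalling, had 43.0 and 16.8 FPKM, a difference of -1.30, and was the 1 gene of this list past 1, while Cebpb at the other end had 13.5 and 18.6 FPKM. Of 14 further AP-1 and Maf factors 11 reached the minimum, beside 42.3% of all named genes. They were led by Atf4 at 111 ± 9.97 FPKM, Maf at 53.7 ± 4.80 FPKM and Mafk at 18.9 ± 2.02 FPKM. Fosl2, the remaining Fos family gene, had 19.5 and 16.1 FPKM and so lay above Fosb and Fosl1 (it was named after its values were seen). Batf2 had 17.9 and 8.27 FPKM, a difference of -1.03, and Atf2 had 4.95 and 7.44 FPKM. The median of this list was -0.16, or 0.02 with the trend removed, and 8 of 11 were lower in replicate 2, beside 36% of all genes.

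Other MAP kinase phosphatases were lower than Dusp1 apart from Dusp6, which acts on ERK kinases. Dusp6 had 23.2 and 16.4 FPKM, beside 23.4 and 12.9 FPKM for Dusp1. Dusp5 followed at 6.70 ± 0.818 FPKM and Dusp16 at 6.69 ± 1.99 FPKM. The minimum was reached by 5 of 9, beside 42.3% of all named genes, and nothing is read from that count. Dusp6 was lower in replicate 2 by a difference of -0.48 and Dusp16 higher by 0.54. The list of the cascade upstream, which also holds SRF, its partners and CREB, was expressed in 26 of 29 genes, beside 42.3% of all named genes. This list was led by Mapk3, which encodes the kinase ERK1, at 185 ± 23.2 FPKM, Map2k2, its activator MEK2, at 94.8 ± 11.5 FPKM, and Rps6ka1, a kinase downstream of ERK, at 87.8 ± 6.24 FPKM. None of its 27 genes averaging 1 FPKM or more passed a difference of 1, and their median was 0.10. Mapk3 at -0.26 and Mapk9 at 0.49 marked the ends among those above 5 FPKM.

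Heat shock genes, which are also known to respond when tissue is taken apart, lay in both directions between the libraries. All 18 reached the minimum, beside 42.3% of all named genes. In replicate 2, 11 were higher and 7 lower, beside 36% of all genes lower, with a median difference of 0.46, or 0.35 with the trend removed, beside 0.11 over all genes. Hspa8, a chaperone made without stress as well, had 620 and 935 FPKM, Hsp90ab1 293 and 416 FPKM, and Hsph1 6.65 and 15.9 FPKM, the only member past 1 with a difference of 1.14. Ubb, a ubiquitin gene, had 1449 and 1265 FPKM, and Hspb1 had 9.45 and 5.80 FPKM. Hspa1a and Hspa1b, which are strongly inducible, were slightly lower in replicate 2. Hspa1a had 51.2 and 42.2 FPKM (-0.27 in log2(FPKM + 1)) and Hspa1b 56.1 and 54.8 FPKM (-0.03), and these near-identical copies may share reads, so their division is uncertain. Dnajb1, a partner of the HSP70 chaperones, had 28.1 and 25.7 FPKM (-0.13) and Bag3, which also binds them, 8.95 and 6.16 FPKM (-0.48), both named after their values were seen. Hsp90aa1 (0.45), Hspe1 (0.47), Dnaja1 (0.53), Dnajb4 (0.54), Hspd1 (0.66) and Chordc1 (0.69) were higher in replicate 2. The named genes that were lower therefore do not stand for the list, and a split by inducibility was not tested. The difference between these lists was not tested, since each rests on the same pair of libraries.

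**Figure D5:**
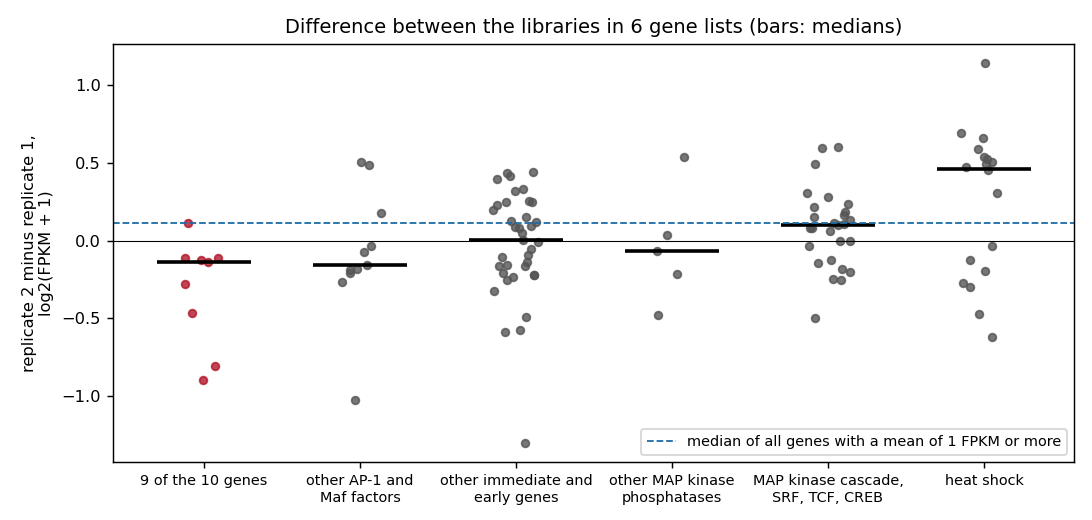
Difference between the libraries (replicate 2 minus replicate 1, in log2(FPKM + 1)) for each gene averaging 1 FPKM or more in 6 lists, with a bar at the list median and a dashed line at the median of all genes (0.11). The 9 expressed genes of the set have a median of -0.14 and heat shock genes one of 0.46.

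Most markers of other cell types were low or listed at 0, and epithelial markers were high. Epithelial identity genes reached the minimum in 8 of 8 cases, beside 42.3% of all named genes, led by Krt8 at 2249 ± 301 FPKM. All 8 were lower in replicate 2, beside 36% of all genes. Their median difference was -0.19, or -0.12 with the trend removed, beside 0.11 over all genes. Over 42 markers of T cells, myeloid cells, B cells, fibroblasts, endothelium, smooth muscle, neurons and glia the summed level was 14.8 FPKM in replicate 1 against 13.4 FPKM in replicate 2. Of the 42 markers, 2 reached 1 FPKM in both libraries, beside 42.3% of all named genes, and both were myeloid. Lyz2, the lysozyme gene of myeloid cells, had 5.87 and 7.08 FPKM, and Itgam, which encodes CD11b, had 3.12 and 1.90 FPKM. The rest of the myeloid list lay under 1 FPKM in both libraries, so these 2 do not stand for it. Cd68 had 0.560 and 0.106 FPKM, Fcgr3 0.103 and 0.0641 FPKM, Csf1r 0.0667 and 0.0715 FPKM, and Adgre1 0.0201 and 0 FPKM. A single list summed to between 0.243 and 9.74 FPKM in replicate 1, and to between 0.122 and 9.22 FPKM in replicate 2. The myeloid markers S100a8 and S100a9, the fibroblast markers Pdgfra and Lum and the endothelial markers Cdh5, Kdr and Emcn were listed at 0 in both libraries. The highest marker of the T cell list was Ptprc at 0.651 ± 0.304 FPKM. Ptprc encodes CD45, the protein of leukocytes named above, and does not mark T cells alone. In the other lists the highest was Cd79b for B cells at 0.563 ± 0.140 FPKM, Col3a1 for fibroblasts at 0.144 ± 0.154 FPKM, Pecam1 for endothelium at 0.184 ± 0.156 FPKM and Tagln for smooth muscle at 0.689 ± 0.369 FPKM. In a mixture of epithelial cells, fewer cells expressing a gene and less RNA per cell cannot be told apart.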

How the data were processed

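Messenger RNA was measured by sequencing in 2 libraries of 1 group. The submitters' processing notes name TopHat2 (2.0.14), Cufflinks (2.2.1) and mm10. The sources used here give no annotation or strand setting. The authors deposited FPKM, 1 value per gene symbol, so tests for counts were not applicable. Of 24384 rows, 27 named by a date were left out. The labels do not say how the libraries are related, so the SD measures only the spread between these samples.

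Depth was read from the lowest values as the number of fragments for which FPKM times transcript length less 160 bases came nearest to whole numbers. Of low values 68.1% and 69.1% lay within 0.05 of one, so depth and fragment numbers are approximate. The ratio of depths was 1.62, as also from the commonest ratio of low values. Differences were taken as log2(FPKM + 1), which understates those of low genes. Lengths, GC content (known for 96.5% of genes averaging 1 FPKM or more) and untranslated regions came from GENCODE M21, using the longest transcript with a RefSeq entry. The trend was removed as the median in 20 by 5 bins of GC content and length, and the overall median added back. Depth and trend steps were tested on simulated data.

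The 10 genes and all lists were chosen with earlier results of these data known. Named genes are the 10, the 3 highest and the extremes of difference (mean of at least 5 FPKM) of each other list, the highest marker per cell type (1 of them is not reported here), and the 3 genes nearest to Fos. Other names, and the promoter letters searched, were chosen after their values or sequences were seen. Alternatives changed the pseudocount, minimum, scaling, trend and libraries used. Python 3.11.15, numpy 2.4.6, pandas 2.3.3, scipy 1.17.1 and matplotlib 3.10.9 were used.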

Additional observations from a re-analysis of the deposited data

How the results depend on the processing

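No paired analysis was possible because there is 1 group. Between 8 and 9 of the 10 genes counted as expressed under the other minimum values of 0.1 and 5 FPKM, and 9 did in each library alone. The Jun share ranged from 68.5% to 69.3% in single libraries was 68.4% in fragments, and was 66.3% with Fosl2 counted in the Fos family, an alternative chosen after seeing the data. The median percentile was 94.0 to 94.5 in single libraries and 91.6 among genes averaging 1 FPKM or more. The count of 4 separated pairs of neighbours was the same under each of the 3 alternatives tried. No gene passed a difference of 1 except under rescaling by the median ratio, where 1 did (Atf3). Over 7 settings and 9 genes, 63 differences between the libraries moved by less than the SD of 0.386 over all genes, and 5 of them changed sign: Ier2 after rescaling by the median ratio, and Jun, Junb, Jund and Egr1 with the trend removed. Settings that changed the minimum FPKM only choose genes, so their values were the same by construction. The SD also exceeds the difference itself for Fos, Jun, Junb, Jund, Egr1 and Ier2, so it is a loose limit for these.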

Other observations

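The 3 genes nearest to Fos in both values, by distance in log2(FPKM + 1), were D8Ertd738e with 145 and 134 FPKM, Abhd17a with 144 and 129 FPKM and Ndufa13 with 142 and 128 FPKM. Over 2 libraries such nearness is a match of level only.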
